A study of Mus musculus with 7 samples.

Results

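The 34 genes described here encode the peroxidases, peroxiredoxins, thioredoxin and glutathione enzymes, the NRF2 regulators and the NADPH-supplying enzymes of mouse cells. They were taken from the deposited gene table by symbol, from a list of names drawn up with earlier results of these data known. All 34 were found, 1 row each, among 54347 rows, and all 34 passed the filter on low counts. The table holds RNA sequencing counts of LT-HSCs, the bone marrow stem cells that can rebuild blood over the long term. Both genotypes were female and came from a C57BL/6N line that carries an Emcn allele made by the mouse phenotyping consortium (C57BL/6N-EMCN em1(IMPC)Wtsi /WtsiH). The WT group was 4 Emcn+/+ mice (wt_284, wt_290, wt_310 and wt_312) and the KO group 3 Emcn-/- mice (ko_306, ko_314 and ko_320), with littermates as controls, 1 mouse for each library and 3000 to 5000 sorted cells for each replicate. The labels name no treatment, age or Cre driver. Marrow was depleted of lineage-positive cells and stained for Gr-1, CD11b, B220, CD3e and Ter119 along with Sca-1, c-kit, CD150 and CD48 before the sort. P-values measure the spread between these mice. The product of Emcn, endomucin, is a mucin-like glycoprotein of endothelial and blood stem cells. Its gene held 130, 327, 223 and 216 counts in the WT libraries against 1, 0 and 0 in the KO libraries.

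Aerobic cells make superoxide and hydrogen peroxide as they respire. Superoxide dismutase turns superoxide into hydrogen peroxide, and catalase, glutathione peroxidases and peroxiredoxins remove the peroxide. The electrons for the last pair of families come from glutathione and thioredoxin, which reductases restore at the expense of NADPH from the pentose phosphate pathway. The transcription factor NRF2, held down by KEAP1 and opposed on DNA by BACH1, raises many of these genes under oxidative stress. Blood stem cells are known to keep low levels of reactive oxygen, and a rise in them is tied to loss of quiescence.

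Library totals ran from 6444134 to 11101774 counts. 1 WT library, wt_284, stood apart in the markers of other marrow cells. The summed level of 15 neutrophil and monocyte markers was 9259 CPM in wt_284, 225 to 969.5 CPM in the remaining 3 WT libraries and 207 to 473 CPM in KO, and all 15 were highest in wt_284. The sum of the 12 erythroid markers found, of 13 listed, was 4185 CPM in wt_284, 579 to 1332 CPM in the remaining 3 WT libraries and 632 to 811 CPM in KO. Mast cell and basophil markers (6) summed to 91.3 CPM in wt_284, 8.86 to 33.01 CPM in the remaining 3 WT libraries and 0 to 8.09 CPM in KO, and B and early lymphoid markers (8) to 120.1 CPM in wt_284, 12.2 to 16.4 CPM in the remaining 3 WT libraries and 11.5 to 15.8 CPM in KO. T and NK markers (4) summed to 13.6 CPM in wt_284, 2.05 to 7.49 CPM in the remaining 3 WT libraries and 2.98 to 6.54 CPM in KO. Megakaryocyte and platelet markers (5) lay at 54.5 to 145 CPM in WT and 88.2 to 122 CPM in KO. Endothelial markers (5) lay at 124 to 157 CPM in WT and 140.3 to 151 CPM in KO. The endothelial cadherin Cdh5 was at 0 counts in 5 of 7 libraries. The 10 stem cell markers, which include Kit and Slamf1, were present in every library and summed to 1256 CPM in wt_284, 1823 to 1957 CPM in the remaining 3 WT libraries and 1730.3 to 1996 CPM in KO. The granule genes Mpo and Elane stood at 1084 and 148 CPM in wt_284 and at no more than 203 and 24.1 CPM in any other library. Mpo was also lower in each KO library (5.42 to 8.95 CPM) than in the other 3 WT libraries (27.2 to 203 CPM). The same held for Ly6c2, Irf8 and Ly86, while the rest of the neutrophil and monocyte markers overlapped between genotypes without wt_284. Elane, for one, was 0.385 CPM in wt_312 and 1.12 to 4.58 CPM in KO. Markers of other lists also lay lower in each KO library than in the other 3 WT libraries. They were Hbb-bt, Epor, Mcpt8, Cpa3, Il7r, Kdr and the stem cell marker Hoxb5. Without wt_284 the genotypes did not overlap, in either direction, for 7.25% of all tested genes. Fold changes are therefore also given without wt_284. In sorted bulk cells, a change in the cells collected and a change in RNA for each cell cannot be told apart. CPM are depth-scaled counts with TMM factors.

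Scaled to length, Gpx1 was the most abundant of the 34 transcripts in 7 of 7 libraries. Gpx1 encodes the cytosolic selenium-dependent glutathione peroxidase, and its median level was 191 CPM per kilobase of merged exons, with a range of 153 to 347. Next came thioredoxin, Txn1, with a median of 52.3 CPM per kilobase (33.5 to 73.5), and Gpx4, the peroxidase of lipid hydroperoxides, with 50.6 (41.6 to 55.6). The ranges of Txn1 and Gpx4 overlap, so their order is not resolved. Sod1, Cat, Hmox2, Prdx2, Gstm1, Prdx1 and Prdx6 followed with medians of 39.5 down to 24.97 CPM per kilobase, each with a range that overlaps its neighbour. The lowest medians were those of Gss (2.85), Mgst3 (3.53), Mgst1 (3.66) and Nqo1 (3.77). The plot of level per length shows the whole order. Merged exon length counts every annotated exon once, so a gene with long rare transcripts is set too low on this scale.

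**Figure D1:**
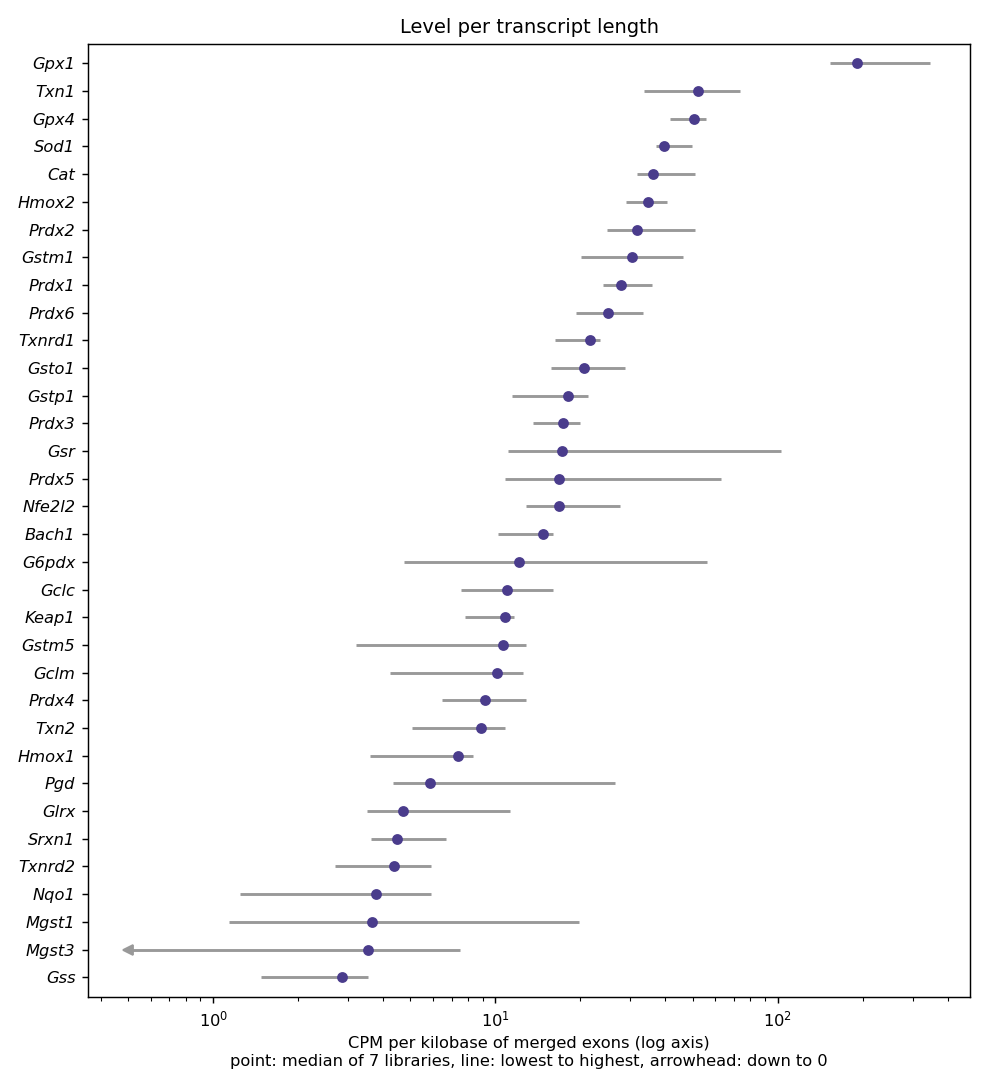
Level of each of the 34 genes in CPM per kilobase of merged exons (x axis, log scale), with genes on the y axis in order of their median over 7 libraries (points) and lines from the lowest to the highest library. Gpx1 stands apart at the top with a median of 191, and Gsr, Prdx5, G6pdx, Pgd and Mgst1 have the longest lines toward high values.

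The comparison of KO with WT asks whether stem cells without endomucin differ in these transcripts. No antioxidant or glutathione gene passed the threshold: 0 of 34 were higher and 0 of 34 lower in KO at an adjusted p under 0.05 in edgeR's quasi-likelihood test, where 0.00651% of the 15372 tested genes, which is Emcn alone, passed. The adjusted p of the 34 genes was 0.992 to 0.998, and 0 had an unadjusted p under 0.05, against 3.27% of all genes. DESeq2 gave no p for Gsr and called 0 of the other 33. In DESeq2, 2 of them, Mgst1 and Prdx5, had an unadjusted p under 0.05, with an adjusted p of 0.787 and 0.835. The share of all genes under that limit in DESeq2 is not given here. The log2 fold change, KO minus WT, was negative for 28 genes and positive for 6, with a median of -0.21 beside -0.019 over all tested genes, of which 52.4% were negative. Without wt_284 the median was -0.15 beside 0.001 over all genes, with 25 genes negative, and with mice numbered above 300 alone it was -0.053, with 20 negative. WT and KO libraries did not overlap for 2 of 34 genes, 1 in each direction, against 4.86% of all genes, 2.43% with KO higher and 2.43% with KO lower. A difference of more than 2-fold either way fell outside the 95% interval for 23 of 34 genes (67.6%, against 49.6% of all genes). One of more than 1.5-fold fell outside it for 8 (23.5%, against 20.9% of all genes). Those 8 are Gpx4, Cat, Sod1, Prdx1, Txnrd1, Gsto1, Keap1 and Bach1. For the other 26 a 1.5-fold difference lay inside the interval.

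**Figure D2:**
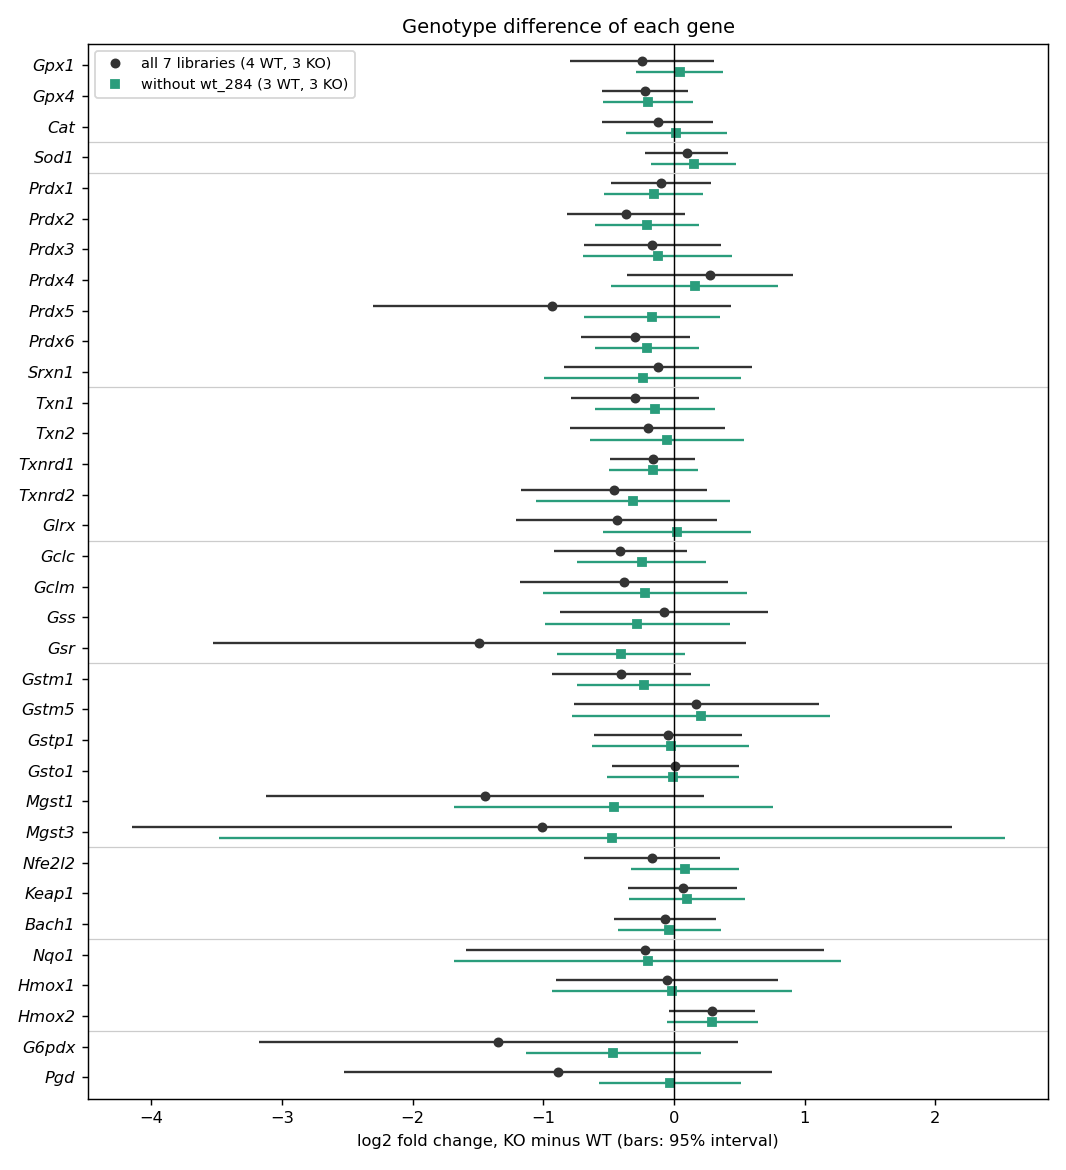
Log2 fold change of each gene, KO minus WT (x axis), with 95% intervals, from all 7 libraries (circles) and without wt_284 (squares), with genes on the y axis grouped by role. Every interval from all libraries spans 0, and the values of Gsr, Mgst1, G6pdx, Prdx5 and Pgd move toward 0 without wt_284.

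Both glutathione peroxidases and catalase had negative values, Sod1 a positive one, and 0 of the 4 passed. Gpx4 (ENSMUSG00000075706.10, chromosome 10 from 80047166 to 80056439 on the plus strand) had 94.9, 87.2, 88.3 and 95.8 CPM in wt_284, wt_290, wt_310 and wt_312 and 78.4, 85.4 and 71.7 CPM in ko_306, ko_314 and ko_320. Every KO library lay below every WT library, and the means were 91.6 ± 4.44 CPM (SD, n = 4) for WT mice, and for KO mice 78.5 ± 6.87 CPM (SD, n = 3). The log2 fold change was -0.22 (-0.55 to 0.11), with the 95% interval in parentheses here and below, and -0.20 without wt_284. A pseudogene, Gpx4-ps2, held 235 counts over all libraries beside 5077 of Gpx4, so a few reads may be split between them. Gpx1 had 499.8, 267, 310.2 and 220.4 CPM in wt_284, wt_290, wt_310 and wt_312 and 246, 275 and 299.9 CPM in ko_306, ko_314 and ko_320. Apart from wt_284 the genotypes overlapped, and the value of -0.24 (-0.79 to 0.30) became 0.045 (-0.29 to 0.38) without that library. Cat, which encodes catalase, had 83.2 to 132 CPM in WT and 83.1 to 118 CPM in KO, with a value of -0.12 (-0.55 to 0.30) and 0.018 without wt_284. Sod1, the cytosolic superoxide dismutase, had 174, 157, 147 and 153 CPM in wt_284, wt_290, wt_310 and wt_312 and 157, 151 and 197 CPM in ko_306, ko_314 and ko_320. The groups overlapped, with the highest level in ko_320, and the value was 0.097 (-0.22 to 0.42), or 0.15 without wt_284.

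Peroxiredoxins reduce peroxides through a reactive cysteine, and sulfiredoxin (Srxn1) restores the 2-cysteine members when that residue is overoxidized. Of these 7 genes 6 had negative values and 1 a positive one, and 0 passed. Prdx2, the cytosolic form that is abundant in red cells, had 155, 96.5, 127 and 92.3 CPM in wt_284, wt_290, wt_310 and wt_312 and 87.7, 75.6 and 109.7 CPM in ko_306, ko_314 and ko_320. The highest level was in wt_284, where erythroid markers and those of several other marrow cells were also highest. The groups overlapped, with a value of -0.37 (-0.82 to 0.083) that was -0.21 without wt_284. Prdx1, its cytosolic relative, had 80.4 to 109 CPM in WT and 72.9 to 102 CPM in KO and a value of -0.10 (-0.48 to 0.28). Prdx6, the 1-cysteine form, had 92.8 to 159 CPM in WT and 98.2 to 119.9 CPM in KO and a value of -0.30 (-0.71 to 0.12). Without wt_312, the lowest library, Prdx6 had an unadjusted p of 0.0170 and an adjusted p of 0.726 in edgeR. That fit leaves out the WT library that opposed the difference, so it was bound to show a larger one, and nothing is read from it. The mitochondrial Prdx3 had 20.03 to 29.5 CPM in WT and 21.9 to 25.6 CPM in KO and a value of -0.16 (-0.69 to 0.36). Prdx4, the form of the endoplasmic reticulum, had 13.6, 24.5, 19.4 and 15.2 CPM in wt_284, wt_290, wt_310 and wt_312 and 18.7, 20.3 and 27.00 CPM in ko_306, ko_314 and ko_320. It was lowest in wt_284 and highest in ko_320, with overlap between the groups and a value of 0.27 (-0.36 to 0.91). Srxn1 had 10.2 to 18.8 CPM in WT and 10.2 to 14.98 CPM in KO and a value of -0.12 (-0.84 to 0.60). Without wt_284 the log2 fold change was -0.15 for Prdx1, -0.13 for Prdx3, 0.16 for Prdx4, -0.21 for Prdx6 and -0.24 for Srxn1. Prdx5 is described below with the genes that were high in wt_284.

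Thioredoxins carry electrons to peroxiredoxins, and thioredoxin reductases, which are selenoproteins, recharge them from NADPH. The glutaredoxin Glrx was grouped with these genes and is described below with those that were high in wt_284. All 5 genes of the group had negative values and 0 passed. Without wt_284, 4 were negative and Glrx was positive at 0.022. Txnrd1, the cytosolic reductase (ENSMUSG00000020250.10, chromosome 10 from 82833951 to 82897712 on the plus strand), had 156, 167, 146 and 153 CPM in wt_284, wt_290, wt_310 and wt_312 and 154, 148 and 115 CPM in ko_306, ko_314 and ko_320. The lowest level was in ko_320, the other KO libraries lay among the WT libraries, and the value was -0.16 (-0.49 to 0.16). Txnrd2, the mitochondrial reductase, had 12.3 to 25.9 CPM in WT and 11.9 to 19.2 CPM in KO and a value of -0.46 (-1.17 to 0.25). Txn1 had 49.3 to 77.2 CPM in WT and 35.2 to 57.7 CPM in KO, with a value of -0.30 (-0.78 to 0.19) and -0.14 without wt_284, and the mitochondrial Txn2 had 21.3 to 45.5 CPM in WT and 25.98 to 38.3 CPM in KO and a value of -0.20 (-0.79 to 0.39). Both thioredoxins were highest in wt_284. In its absence the values were -0.16 for Txnrd1, -0.31 for Txnrd2 and -0.056 for Txn2.

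Glutathione is made by glutamate-cysteine ligase, with its catalytic subunit Gclc and modifier subunit Gclm, and by glutathione synthetase, Gss. None of the 3 genes passed. Gclc had 60.2, 44.1, 34.2 and 44.8 CPM in wt_284, wt_290, wt_310 and wt_312 and 41.4, 28.3 and 33.6 CPM in ko_306, ko_314 and ko_320. The groups overlapped, with ko_306 above wt_310, and the value was -0.41 (-0.92 to 0.10), or -0.25 without wt_284. Gclm had 78.7, 67.1, 68.01 and 26.7 CPM in wt_284, wt_290, wt_310 and wt_312 and 63.9, 36.4 and 37.7 CPM in ko_306, ko_314 and ko_320. It was lowest in wt_312, below every KO library, and the value was -0.38 (-1.18 to 0.41). Without wt_312 it was -0.61, with an unadjusted p of 0.0220 and an adjusted p of 0.726 in edgeR. With the lowest WT library left out, a larger difference was bound to follow, and nothing is read from that fit. Gss had 8.73 to 20.9 CPM in WT and 9.93 to 20.1 CPM in KO, with its lowest level in wt_284, and a value of -0.074 (-0.87 to 0.72). Leaving out wt_284 gave -0.22 for Gclm and -0.28 for Gss.

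Glutathione transferases attach glutathione to reactive compounds. Of 6 genes, 2 had positive and 4 negative values, and 0 passed. Gstm1 had 67.9, 48.1, 43.9 and 44.7 CPM in wt_284, wt_290, wt_310 and wt_312 and 52.3, 29.7 and 33.7 CPM in ko_306, ko_314 and ko_320. Its lowest levels were in ko_314 and ko_320, while ko_306 lay above 3 WT libraries, and the value was -0.40 (-0.94 to 0.13). Without ko_306 it was -0.71, with an unadjusted p of 0.0188 and an adjusted p of 0.832 in edgeR. With the highest KO library left out, a larger difference was bound to follow, and nothing is read from that fit. Gstm5 had 4.11 to 16.4 CPM in WT and 10.6 to 15.9 CPM in KO with a value of 0.17 (-0.77 to 1.11), Gstp1 had 17.7 to 33.01 CPM in WT and 23.1 to 29.2 CPM in KO with -0.044 (-0.61 to 0.52), and Gsto1 had 40.7 to 45.3 CPM in WT and 31.9 to 58.2 CPM in KO with 0.012 (-0.47 to 0.50). The near copies Gstp2 and Gstp3 held 27 and 20 counts over all libraries beside 1578 of Gstp1, so the split of reads between them is uncertain for few reads. Mgst3, a membrane-bound transferase, had 68, 47, 29 and 0 counts in the WT libraries and 29, 26 and 0 in the KO libraries, so it was at 0 in 1 library of each genotype. With 0 counts, a level of up to 0.385 CPM in wt_312 and 0.382 CPM in ko_320 is allowed by counting error alone, and the 95% interval of its value ran from -4.15 to 2.13. With wt_284 left out, the values were -0.23 for Gstm1, 0.21 for Gstm5, -0.024 for Gstp1, -0.005 for Gsto1 and -0.48 for Mgst3.

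NRF2 acts through the antioxidant response element, a short DNA motif at its target genes. Of 3 regulators 0 passed. Nfe2l2, which encodes NRF2, had 105, 67.1, 63.6 and 48.7 CPM in wt_284, wt_290, wt_310 and wt_312 and 58.98, 58.2 and 72.6 CPM in ko_306, ko_314 and ko_320. It was highest in wt_284, with overlap among the rest, and its value was -0.17 (-0.69 to 0.35), or 0.083 without that library. Keap1 had 36.7 to 54.2 CPM in WT and 46.4 to 54.4 CPM in KO and a value of 0.067 (-0.35 to 0.49). Bach1 had 80.3 to 93.6 CPM in WT and 63.2 to 98.9 CPM in KO and a value of -0.066 (-0.46 to 0.32). The target enzymes Nqo1, a quinone reductase, and Hmox1, the inducible haem oxygenase, were low in every library, at 1.93 to 9.17 CPM and 6.29 to 14.6 CPM. Their values were -0.22 (-1.59 to 1.15) and -0.052 (-0.90 to 0.80), and both were lowest in wt_312. The fit without wt_284 gave 0.097 for Keap1, -0.034 for Bach1, -0.20 for Nqo1 and -0.015 for Hmox1.

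Hmox2, the constitutive haem oxygenase (ENSMUSG00000004070.15, chromosome 16 from 4726361 to 4766742 on the plus strand), was the 1 gene with every KO library above every WT library. It had 69.9, 69.97, 64.3 and 76.9 CPM in wt_284, wt_290, wt_310 and wt_312 and 84.4, 83.8 and 89.9 CPM in ko_306, ko_314 and ko_320. The means were 70.3 ± 5.15 CPM (SD, n = 4) for WT mice, and for KO mice 86.04 ± 3.37 CPM (SD, n = 3). The value was 0.29 (-0.039 to 0.62), with an unadjusted p of 0.0791 and an adjusted p of 0.992 in edgeR, and 0.29 (-0.056 to 0.64) without wt_284. Leaving out each mouse in turn gave 0.25 to 0.35. Of its merged exon bases 40.2% are shared with exons of Cdip1 on the other strand, and no source used here says whether reads were counted by strand. Cdip1 itself had 25.6 to 39.1 CPM in WT and 31.3 to 35.8 CPM in KO, with overlap between the genotypes and a value of 0.19 (-0.30 to 0.68). Whether its reads add to those of Hmox2 was not tested.

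Promoters of the matched genes were searched for 2 motifs on both strands, the core of the antioxidant response element, TGACNNNGC, and the AP-1 element, TGAGTCA, which can overlap it. RefSeq promoters (GRCm38.p6, 250 bases before to 50 after a start) were found for 30 of 34 genes, 41 promoters in all. Prdx6, Gsr, Gclc and Hmox1 had no promoter to search, so whether they hold either motif was not examined. The response element core was present in 10 of these 41 promoters (24.4%), against 12.4% of all 32851 promoters. The AP-1 element was present in 6 (14.6%), against 5.2%, and these 6 promoters belong to 5 genes. Glrx has 2 overlapping promoters that hold the same match, which is counted in each. These shares describe letters in a window and say nothing of binding. Genes with the core were G6pdx, Gclm, Gstm5, Mgst1, Nfe2l2, Pgd, Prdx1, Sod1, Srxn1 and Txnrd1. The 5 stretches that follow are upstream of a start (in Txnrd1, a start inside the gene) and show how the motifs lie, with each match in capitals, read 5′ to 3′ on the strand of the gene. Gclm, Prdx1 and Txnrd1 hold the core, reversed, while Srxn1 and Glrx hold the AP-1 element, and in Prdx1 both motifs share bases.
Gclm (chr3:122245398-122245457, plus strand): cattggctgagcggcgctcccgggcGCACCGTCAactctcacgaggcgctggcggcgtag
Prdx1 (chr4:116685441-116685500, plus strand): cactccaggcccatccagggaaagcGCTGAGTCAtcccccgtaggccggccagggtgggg
Txnrd1 (chr10:82859089-82859148, plus strand): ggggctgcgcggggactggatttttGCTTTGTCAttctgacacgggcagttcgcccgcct
Srxn1 (chr2:152105397-152105456, plus strand): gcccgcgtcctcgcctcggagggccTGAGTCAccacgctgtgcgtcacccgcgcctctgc
Glrx (chr13:75839762-75839821, plus strand): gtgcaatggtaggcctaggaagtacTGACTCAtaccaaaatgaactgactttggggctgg

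Of these 5 genes, 4 had levels within 3-fold over the 7 libraries, at a highest-to-lowest ratio of 2.95 for Gclm, 1.49 for Prdx1, 1.45 for Txnrd1 and 1.85 for Srxn1, while for Glrx it was 3.21. Of the genes with the core, G6pdx, Mgst1 and Pgd stood at least 2-fold higher in wt_284 than in any other library, and the rest did not. Prdx5 and Glrx, also high there, had no match to the core, and Gsr had no promoter to search. Whether the core has a part in these levels was not tested.

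**Figure D3:**
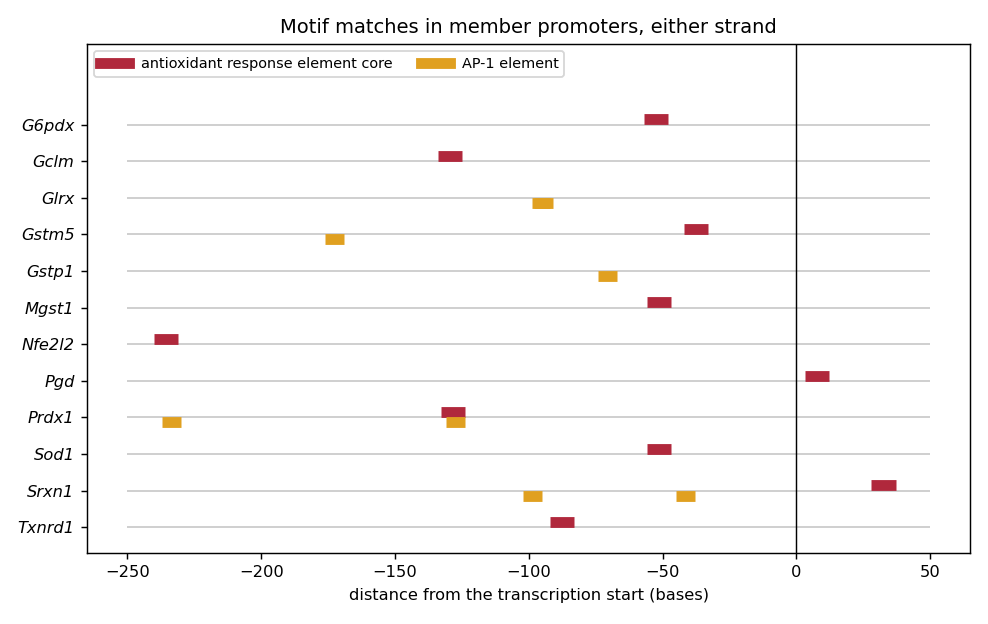
Position of each motif match in the promoters of the 12 genes with any match (y axis), as distance in bases from the transcription start (x axis, 0 at the start), with the antioxidant response element core and the AP-1 element in 2 colours. Most matches lie before the start, and in Prdx1 a match of one motif overlaps a match of the other.

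In 1 WT library, wt_284, 6 of 34 genes (17.6%) stood at least 2-fold above every other library, against 4.64% of all tested genes. These 6 were noticed in the data, and their values are a description. Gsr, the reductase that regenerates glutathione with NADPH (ENSMUSG00000031584.16, chromosome 8 from 33652523 to 33698163 on the plus strand), had 282, 57.5, 56.4 and 40.6 CPM in wt_284, wt_290, wt_310 and wt_312 and 47.5, 30.4 and 38.5 CPM in ko_306, ko_314 and ko_320. The level in wt_284 was 4.90 times the next highest library, and the other WT and the KO libraries overlapped. G6pdx, which encodes the enzyme of the pentose phosphate pathway that yields its first NADPH, had 172, 47.5, 39.7 and 31.5 CPM in wt_284, wt_290, wt_310 and wt_312 and 37.5, 33.7 and 14.6 CPM in ko_306, ko_314 and ko_320. Pgd, the enzyme that yields the next NADPH, had 170.2, 54.2, 37.9 and 28.00 CPM in wt_284, wt_290, wt_310 and wt_312 and 45.03, 34.6 and 37.8 CPM in ko_306, ko_314 and ko_320. In both genes wt_284 was more than 3 times as high as any other library, and ko_320 was the lowest for G6pdx but not for Pgd.

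Prdx5, a peroxiredoxin of mitochondria, peroxisomes and cytosol, had 135, 34.3, 35.9 and 36.7 CPM in wt_284, wt_290, wt_310 and wt_312 and 33.5, 38.5 and 23.2 CPM in ko_306, ko_314 and ko_320. Mgst1, a membrane-bound glutathione transferase, had 39.8, 7.37, 5.81 and 11.2 CPM in wt_284, wt_290, wt_310 and wt_312 and 8.27, 7.01 and 2.29 CPM in ko_306, ko_314 and ko_320. Glrx, a glutaredoxin that removes glutathione from protein thiols, had 61.8, 25.9, 23.5 and 25.04 CPM in wt_284, wt_290, wt_310 and wt_312 and 28.6, 27.6 and 19.2 CPM in ko_306, ko_314 and ko_320. In all 3 the libraries apart from wt_284 overlapped between genotypes. The 6 genes together summed to 861 CPM in wt_284, 173 to 227 CPM in the remaining 3 WT libraries and 136 to 200.4 CPM in KO. The other 28 summed to 2296 CPM in wt_284 and 1564 to 1915 CPM elsewhere. The summed neutrophil and monocyte, erythroid, mast cell and basophil, B and early lymphoid, and T and NK markers were also highest in wt_284, as given above. The 6 genes were picked for being high there, and the part of any of these cells in their values was not tested. The KO minus WT values of the 6 genes were -1.49 (-3.53 to 0.55) for Gsr, -1.34 (-3.18 to 0.49) for G6pdx, -0.89 (-2.53 to 0.75) for Pgd, -0.93 (-2.30 to 0.44) for Prdx5, -1.45 (-3.12 to 0.23) for Mgst1 and -0.44 (-1.21 to 0.33) for Glrx. Without wt_284 they were -0.40 (-0.89 to 0.088), -0.46 (-1.13 to 0.21), -0.03 (-0.57 to 0.51), -0.16 (-0.69 to 0.36), -0.46 (-1.68 to 0.76) and 0.022 (-0.54 to 0.59), in the same order. Exons of Prdx5 share 19.1% of their bases with Trmt112 and those of G6pdx 13.6% with Ikbkg, on the other strand in both cases. Trmt112 and Ikbkg had 34.9 and 49.6 CPM in wt_284, and neither was highest there.

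**Figure D4:**
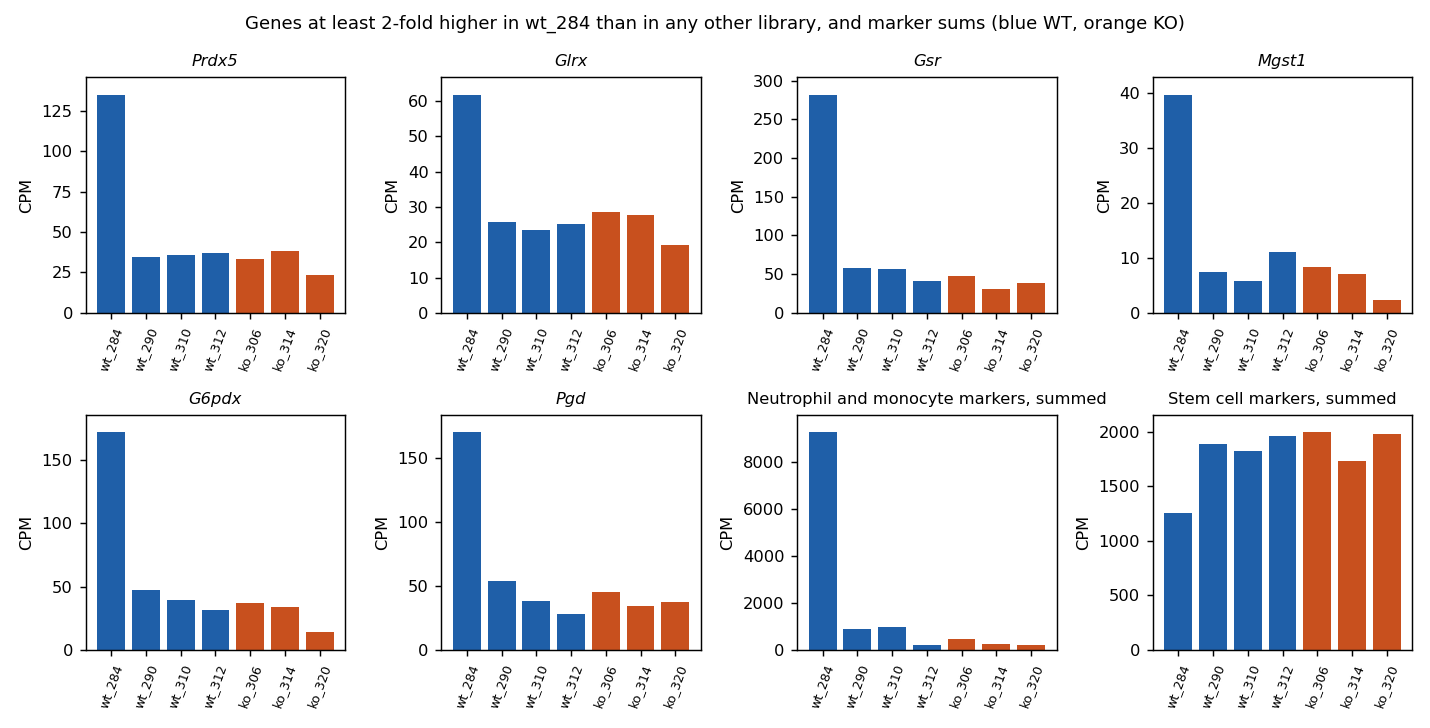
Bars give the level in CPM (y axis, from 0) of 6 genes and of 2 summed marker lists in each library (x axis), with WT in blue and KO in orange. The 6 genes are each at least 2-fold higher in wt_284 than elsewhere, as are the neutrophil and monocyte markers, while the stem cell markers are lowest in wt_284 at 1256 CPM. Summed erythroid, mast cell and basophil, B and early lymphoid, and T and NK markers, which are not drawn, were also highest in wt_284.

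**Figure D5:**
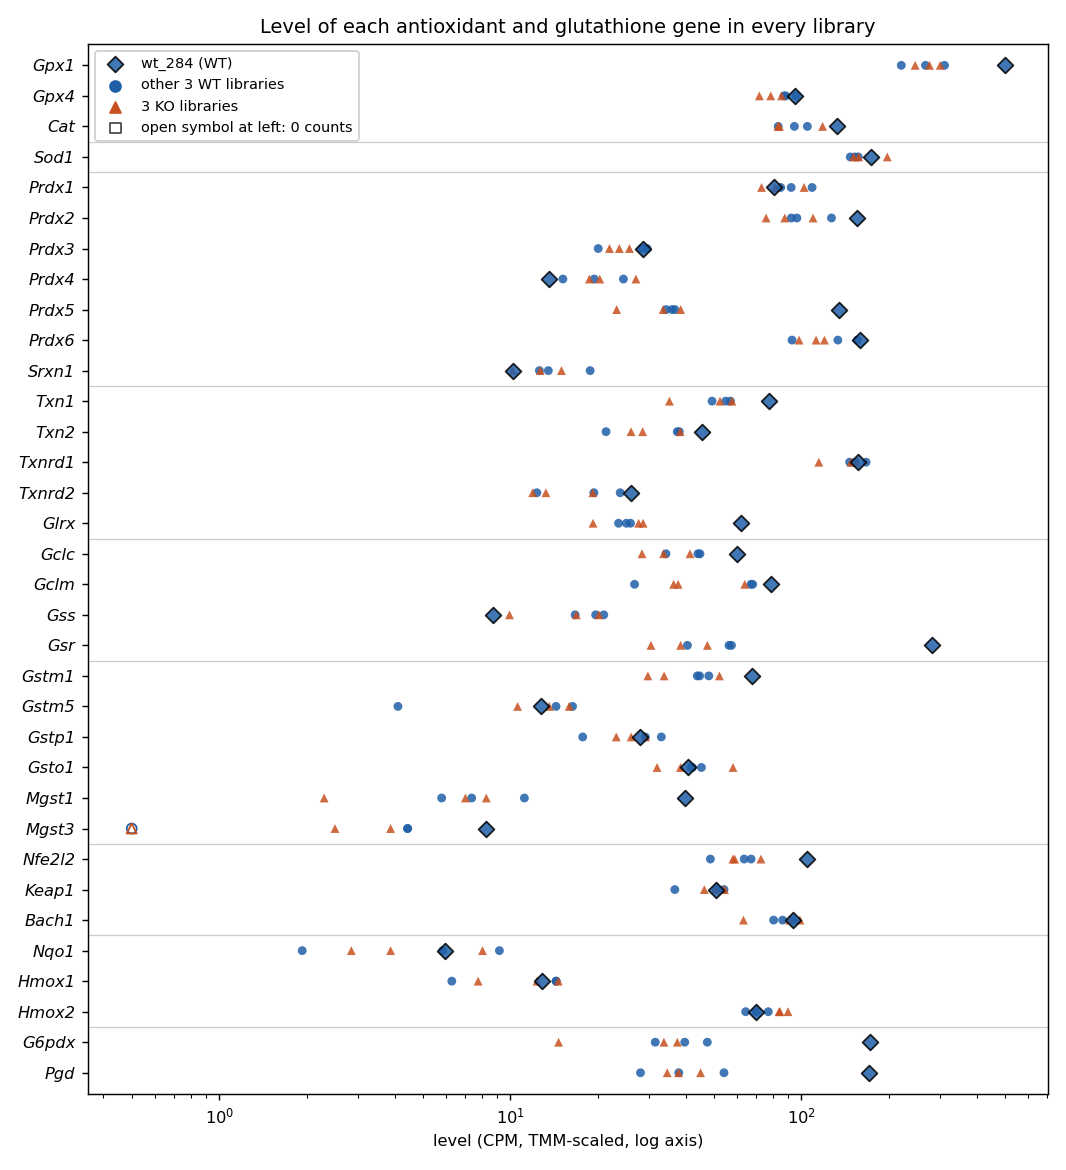
Level of each of the 34 genes in each library in CPM (x axis, log scale), with genes on the y axis grouped by role, WT libraries as circles, wt_284 as an outlined diamond and KO libraries as triangles. The WT and KO libraries overlap for every gene but Hmox2 and Gpx4, and open symbols at the left mark the 2 libraries with 0 counts of Mgst3.

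A wider list of 112 other redox genes was read in the same fit. Of 101 tested, 0 were called higher and 0 lower in edgeR, 39 had positive and 62 negative values, the median was -0.12, and 5 had an unadjusted p under 0.05, against 3.27% of all genes. Without wt_284 the list had 36 positive and 65 negative values, a median of -0.069 and 0 genes at an unadjusted p under 0.05. WT and KO libraries did not overlap for 6 of 101 genes (5.94%, against 4.86% of all genes), with KO below for Idh1, Blvrb and Sqstm1 and above for Abcc1, Cbs and Ggt5, of which the last 3 were named after their values were seen. Abcc1, an exporter of glutathione conjugates, had 126 to 165 CPM in WT and 167 to 179 CPM in KO, with a value of 0.16 (-0.16 to 0.47). DESeq2 gave no p for Cybb and Ncf1 and called 0 of the other genes of the list. With no filter on low counts, edgeR called Slc40a1, the iron exporter ferroportin, at an adjusted p of 0.00203 and Blvrb, biliverdin reductase B, at 0.0337, both lower in KO. Slc40a1 had 50.7, 9.73, 8.41 and 3.98 CPM in wt_284, wt_290, wt_310 and wt_312 and 4.05, 3.88 and 1.27 CPM in ko_306, ko_314 and ko_320. Blvrb had 76.6, 23.1, 27.2 and 23.2 CPM in wt_284, wt_290, wt_310 and wt_312 and 19.8, 8.80 and 21.5 CPM in ko_306, ko_314 and ko_320. For Blvrb every KO library lay below every WT library, and for Slc40a1 the groups overlapped. Both were highest in wt_284, where markers of several other marrow cells, erythroid and myeloid among them, were also highest. Their values of -2.56 and -1.16 were -1.26 and -0.54 without that library.

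Idh1, the cytosolic isocitrate dehydrogenase that makes NADPH, had the smallest p of the wider list. It had 68.5, 28.4, 35.3 and 25.4 CPM in wt_284, wt_290, wt_310 and wt_312 and 22.3, 22.1 and 14.5 CPM in ko_306, ko_314 and ko_320. Every KO library lay below every WT library, with an unadjusted p of 0.014 and an adjusted p of 0.992 in edgeR. The value was -1.004 (-1.77 to -0.24), and -0.59 without wt_284, at an unadjusted p of 0.0515. Slc7a11, the cystine importer that feeds glutathione synthesis, had 22.7, 3.97, 7.64 and 1.16 CPM in wt_284, wt_290, wt_310 and wt_312 and 2.07, 0.597 and 1.53 CPM in ko_306, ko_314 and ko_320. It was low outside wt_284, and its value of -2.63 was -1.58 without that library. Sqstm1, the autophagy receptor p62 that binds KEAP1, had 74.2 to 112 CPM in WT and 57.7 to 72.2 CPM in KO, without overlap, and a value of -0.40 (-0.82 to 0.013) that was -0.24 without wt_284. The remaining genes with the smallest p were Glrx5 at -0.93, Cyba at -0.96, Abcb6 at -1.32, Gstz1 at 0.55, Chac2 at -0.998, Mafk at -0.75 and Msrb1 at -2.48, and 0 of them passed. Without wt_284 these were -0.64, -0.41, -0.82, 0.47, -0.82, -0.36 and -0.92, in the same order.

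Genes that make superoxide, the subunits and regulators of the NADPH oxidases, were the part of the wider list with the lowest median. All 7 tested had negative values, with a median of -0.96, or -0.41 without wt_284, and 0 passed. Cybb, the catalytic subunit of the phagocyte oxidase, had 575, 36.6, 40.04 and 7.19 CPM in wt_284, wt_290, wt_310 and wt_312 and 21.01, 0 and 0.509 CPM in ko_306, ko_314 and ko_320, and Ncf1, its p47 organizer, had 429.8, 33.1, 35.00 and 10.3 CPM in wt_284, wt_290, wt_310 and wt_312 and 25.7, 4.62 and 6.62 CPM in ko_306, ko_314 and ko_320. Both were named after their values were seen. Their levels in wt_284, where markers of several other marrow cells were also highest, were 14.4 and 12.3 times those of the next highest library. The genotypes overlapped. Their values were -4.43 and -3.33, or -1.90 and -1.06 without wt_284. In the whole wider list, 14 of 101 genes (13.9%) stood at least 2-fold higher in wt_284 than in any other library.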

How the data were processed

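The authors' deposited table holds estimated counts, whole numbers for each gene whose totals differ between libraries. Cutadapt and Salmon appear, without versions, among the submitters' processing notes. No source used here states the annotation, the rounding or the use of strand. Per the labels' protocols, libraries were made with a stranded total RNA kit for small inputs from sorted marrow. All 7 value columns matched a sample. Genotype labels gave 4 WT and 3 KO libraries, each of 1 mouse, and the labels name no batch or pairing.

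The fit over all genes used R 4.3.3 and the robust quasi-likelihood test of edgeR 4.0.16, after filterByExpr and TMM, with Benjamini-Hochberg adjustment and a threshold of 0.05. It tested 15372 of 29739 genes that had a count. Dividing a log2 fold change by the square root of F gave its standard error and from that the 95% interval. Positions and merged exon lengths came from GENCODE M21 (GRCm38), where 98.1% of identifiers matched with their version. The fit was tested on simulated data. Alternatives were upper-quartile and RLE scaling, DESeq2 1.42.0, a fit of unfiltered genes, 1 CPM in 3 libraries, leaving out each mouse and mice numbered above 300 alone.

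The 34 genes and all lists were chosen with earlier results of these data known. Named are all 34, Emcn, defining markers, and the 12 genes of the wider list with the smallest p. Other genes named were chosen after their values were seen. Counting limits are 3 counts for a count of 0 and cover counting error only.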

Additional observations from a re-analysis of the deposited data

Results flagged for a closer look

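In the WT group of 4, a gene's most extreme library was set against Dixon's 95% limit for 4 samples, which chance passes in about 1 of 20 groups. Over all tested genes 8.7% passed. Of 34 antioxidant and glutathione genes 6 did, and 5 of them were high in wt_284, as 3.57% of all genes were. Gsr stood there at 282 CPM against a next value of 57.5, G6pdx at 172 against 47.5, Prdx5 at 135 against 36.7, Glrx at 61.8 against 25.9 and Mgst1 at 39.8 against 11.2. The other was Prdx3, low in wt_312 at 20.03 CPM against 28.3 CPM in the nearest WT library. The KO group of 3 was not tested in this way.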

How the results depend on the processing

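Under all 13 alternatives 0 of the genes given an adjusted p were called, which were 33 in DESeq2 (all but Gsr) and 34 in every other, and Emcn stayed called. DESeq2, RLE and upper-quartile scaling, no filter and 1 CPM in 3 libraries left 28 genes negative and 6 positive, and the median moved between -0.22 and -0.17. Leaving out 1 mouse gave 23 to 30 negative genes and medians of -0.32 to -0.15. At an unadjusted p under 0.05 these fits held 0 to 4 of the 34 genes. The 4 (Prdx2, Prdx6, Gclm and Hmox2) came without wt_312, each at an adjusted p of 0.726 in edgeR. With no filter, Mgst1, which was highest in wt_284, had an unadjusted p of 0.00154 and an adjusted p of 0.215 in edgeR. The share of all genes under that limit in the same fits is not given here, so these counts are not read as a result about the 34 genes. Mice numbered above 300 alone gave 20 negative genes, with a median of -0.053. Over all genes edgeR called 1, DESeq2 13 and the fit with no filter 81. That fit called 2 genes of the wider list, Slc40a1 and Blvrb, and the cause was not tested.

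With mice above 300 alone the values that changed sign were Gpx1 (0.049), Cat (0.11), Txn2 (0.084), Glrx (0.056), Gstp1 (0.047), Gsto1 (-0.018), Nfe2l2 (0.18), Bach1 (0.027), Hmox1 (0.17) and Pgd (0.26). Ranges over the fits that left out 1 mouse, for genes whose sign changed in any of them, were Gpx1 (-0.37 to 0.045), Cat (-0.33 to 0.018), Glrx (-0.58 to 0.022), Gsto1 (-0.25 to 0.20), Nfe2l2 (-0.29 to 0.083), Gss (-0.33 to 0.18), Hmox1 (-0.25 to 0.15), Srxn1 (-0.29 to 0.0602), Gstp1 (-0.18 to 0.066), Nqo1 (-0.75 to 0.097), Gstm5 (-0.098 to 0.36), Keap1 (-0.027 to 0.14), Bach1 (-0.21 to 0.12) and Sod1 (-0.011 to 0.18). The sign was kept in all 13 alternatives for 18 of 34 genes. No paired analysis was possible because no mouse number occurs in both groups and no label pairs mice. For 11 of 34 genes, Gsr and Mgst1 among them, the 95% interval reached past 2-fold, so a 2-fold difference lay inside it.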

Other observations

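Ratios within enzyme pairs, from levels per kilobase, overlapped between genotypes in all 6 pairs compared. The cytosolic form was the higher one in both thioredoxin pairs in every library, per kilobase and in CPM. Merged exons were 1051 bases for Txn1 and 4208 for Txn2, so scaling to length widens the ratio of that pair. Txn1 over Txn2 was 5.78 to 9.26 (WT) and 4.95 to 8.89 (KO), and Txnrd1 over Txnrd2 was 3.75 to 7.71 (WT) and 4.997 to 7.70 (KO). Gpx1 over Gpx4 was 2.75 to 6.30 (WT) and 3.75 to 5.004 (KO), highest in wt_284. The constitutive over the inducible haem oxygenase, Hmox2 over Hmox1, was 3.54 to 9.65 (WT) and 4.53 to 8.60 (KO). Gclc over Gclm, the 2 subunits of glutamate-cysteine ligase, was 0.841 to 2.80 (WT) and 1.083 to 1.49 (KO), highest in wt_312, where Gclm was low. Sod1 over Cat was 0.863 to 1.21 (WT) and 0.876 to 1.54 (KO).

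Gpx1, Gpx4, Txnrd1 and Txnrd2 encode selenoproteins, which need a dedicated machinery to insert selenocysteine. Of the 8 genes of that machinery in the wider list, all tested, 5 had positive and 3 negative values, from -0.12 to 0.31 with a median of 0.036, and 0 passed in edgeR or DESeq2, with 0 at an unadjusted p under 0.05 in edgeR.

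The 34 genes together took 0.284% of all counts in wt_284 and 0.176% to 0.215% in the other libraries. The highest library of the 7 was wt_284 for 18 of 34 genes, against 23.1% of all tested genes, and the lowest was wt_312 for 13, against 21.1%.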
